A study of Mus musculus with 74 samples.

Results

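The data were 4 of the 74 mouse 2-colour arrays of a series on T cell gene regulation, namely the set that its labels describe as 4 replicates of empty virus against untreated cells. On each array, total RNA of DO11.10 cells transduced with MSCV carrying no construct shared the slide with total RNA of untreated DO11.10 cells. DO11.10 is a mouse T cell hybridoma, a clonal line made by fusing a T cell with a tumour line. The deposited log2 ratios of the 4 arrays were each centred on the array's median and tested against 0 with a term for dye orientation. The 3 other groups used here were also measured against untreated cells. MSCV_A was a second empty-virus set of 12 arrays, and MSCV_B is the set of 4. The rest were cells transduced with Nur77 or with MEF2D-VP16 (4 arrays each). Titles name the partner only as untreated, so whether it was the same RNA preparation across groups is not known. VP16 is a viral activation domain. The labels do not say whether the arrays hold RNA of separate cultures, how transduced cells were selected, how long after transduction they were taken, or which proteins besides the constructs the vector encodes. A p-value here thus reflects how arrays vary, and that variation may be only technical.

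MSCV, the murine stem cell virus, is a retroviral vector that enters dividing cells, integrates its DNA into the genome and is transcribed from its own long terminal repeat. An empty vector is the usual control for a construct delivered in it. Cells can respond to a retrovirus itself through nucleic acid sensors and interferon, through p53 after DNA damage, and through the handling that transduction entails, such as medium changes and altered cell density. In well-oxygenated cells prolyl hydroxylases mark HIF1A for destruction, and under low oxygen the stabilised factor induces genes of glycolysis, glucose uptake and mitophagy.

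The 4 arrays covered 16463 probes with 0 missing values, and 14551 probes had 1 gene symbol. By their titles, the MSCV RNA was in Cy5 on arrays 1 and 2 and in Cy3 on arrays 3 and 4. Dye orientation weighed heavily on these ratios: the dye term was called for 3774 probes (22.9% of those tested), and its standard deviation over probes was 0.27, against 0.20 for the mean change. Arrays of the same orientation correlated at 0.68 (arrays 1 and 2) and 0.67 (arrays 3 and 4) over probes, and arrays of opposite orientation at -0.29 to -0.18. The dye component correlated at 0.78 over probes with that of the Nur77 arrays, and at 0.23 (MEF2D-VP16) to 0.55 with those of the other hybridoma groups. The mean component of this set correlated at 0.058 with the Nur77 dye component. Each of these correlations runs over the same 16463 probes, which share an array design. Changes shared between transduced sets could also correlate, so these values alone cannot settle the ratio direction. The ratios were read as already turned to transduced over untreated cells on every array. The sign of the whole set is likely rather than stated, and rests on Nr4a1, the gene of Nur77, which was 4.50 higher on the log2 scale on the arrays of Nur77-transduced cells. Nr4a1 lay between 3.183 and 6.115 on those arrays, which cover both orientations. If the ratios were instead Cy5 over Cy3 on every array, many changes below would vanish or turn, as set out at the end.

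Transduction with the empty virus went with a broad but mostly shallow shift in RNA. Of 16463 probes, 942 (5.72%) were called with limma, at p under 0.05 after Benjamini-Hochberg adjustment, 446 (2.71%) of them higher in transduced cells and 496 (3.01%) lower. At least 2-fold changes were fewer, 14 probes higher (0.085%) and 30 lower (0.182%). All 30 of these lower probes and 13 of these 14 higher ones kept their sign on each of the 4 arrays, as did 698 of the 942 (4.24% of all probes). The median change of all probes was 0.0098. The count depended on how the dyes were treated, and without the dye term 20 probes were called, with 1348 at an unadjusted p under 0.05. It was 397, 448, 347 and 390 when array 1, 2, 3 or 4 was left out.

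**Figure D1:**
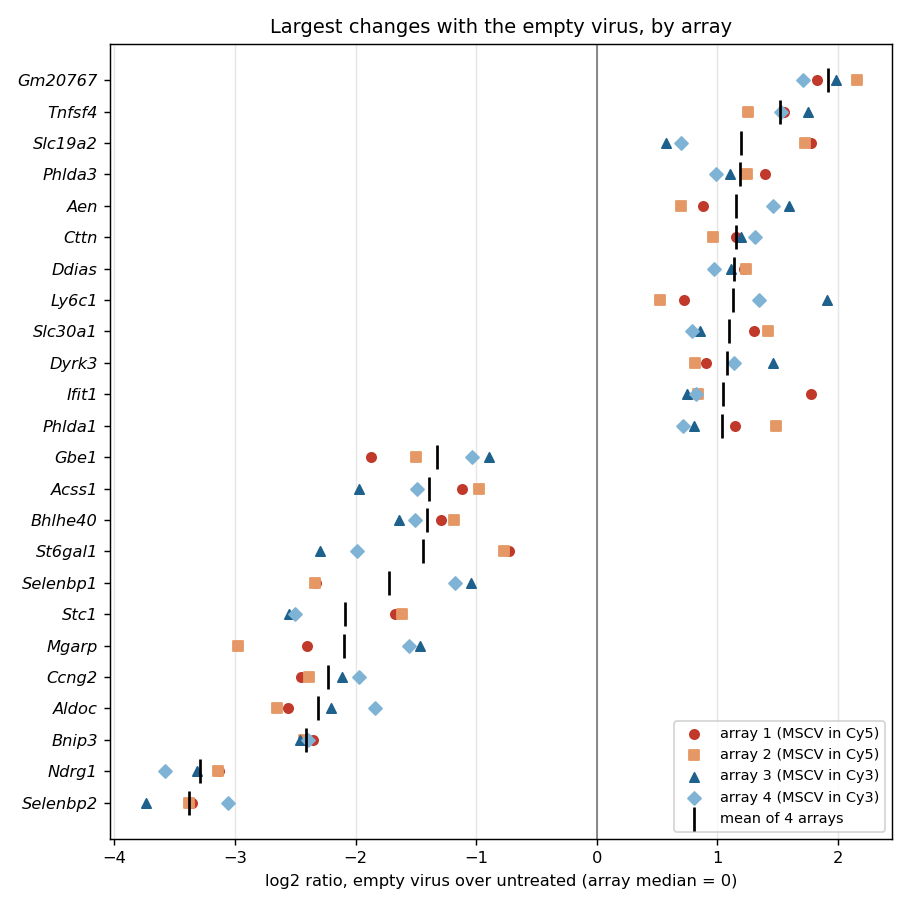
Log2 ratio of empty-virus over untreated cells (x axis, array median set to 0) for the 12 highest and 12 lowest called genes with the same sign on all 4 arrays. Points are single arrays, shaped and coloured by array and dye orientation, and bars are means. Selenbp2, Ndrg1 and Bnip3 lie far below 0 in both orientations, and St6gal1 and Selenbp1 are split by dye.

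Among the lowest genes were several known to be induced by low oxygen. These are bulk RNA ratios, so fewer cells that express a gene and less of its RNA per cell cannot be told apart. Ndrg1, a stress-response gene strongly induced by hypoxia, had log2 ratios of -3.13, -3.14, -3.32 and -3.58 on arrays 1 to 4. All 4 values lay far below 0, and both dye orientations were close together. Its RNA was 9.8-fold lower with the virus (log2 change -3.29, SE 0.0799, adjusted p = 3.42e-06 with limma), but a second Ndrg1 probe read 0.078, 0.098, 0.25 and 0.33 and was not called (0.19, adjusted p = 0.197). The 2 probes thus disagree, and the value belongs to the first. Bnip3, a mitophagy receptor of the outer mitochondrial membrane, had ratios of -2.35, -2.42, -2.46 and -2.40 and fell 5.3-fold (log2 change -2.41, SE 0.0737, adjusted p = 1.04e-05). Its 4 arrays were nearly alike. Aldoc, a glycolytic aldolase, had ratios of -2.56, -2.65, -2.21 and -1.84 and fell 4.97-fold (log2 change -2.31, SE 0.0873, adjusted p = 1.74e-05), with the arrays of Cy5-labelled MSCV RNA somewhat lower.

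Of 28 measured genes on the list of hypoxia-induced and glycolysis genes, 14 fell, 0 rose and 14 were not called, against 3.01% of all probes that fell. The list's median was -0.44, beside 0.0098 for all probes. Its members Selenbp1, Selenbp2, Ndrg1 and Bnip3 were listed with their earlier results known, and without them 10 of 24 fell, with a median of -0.29. All gene lists were chosen with earlier results of these data known, so this smaller count is not independent of them either. In glucose uptake and glycolysis, the transporter gene Slc2a1 had ratios of -1.58, -1.10, -0.69 and -0.66 (log2 change -1.0035, SE 0.0947, adjusted p = 0.00201) and the phosphofructokinase gene Pfkl ratios of -0.71, -0.84, -1.15 and -1.36 (log2 change -1.01, SE 0.0793, adjusted p = 0.000799). All 4 arrays were below 0 for both, with Slc2a1 farther from 0 and Pfkl nearer to it where the MSCV RNA was in Cy5. Pfkl has 2 probes, and its values here are those of the first, from which the second may differ. With the probes of each symbol averaged, 14 members of the list were called lower. In collagen hydroxylation and vessel growth, the prolyl hydroxylase gene P4ha1 fell by 0.71 on the log2 scale (adjusted p = 0.0034) and the growth factor gene Vegfa by 0.56 (adjusted p = 0.00732). The abundant enzymes of lower glycolysis were not called: Gapdh read -0.18 and Ldha -0.11. The 14 members that were not called ran from -0.51 to 0.18. When 1 array was left out, 12 to 14 members of the list were called lower, and 4 were without the dye term.

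The promoters of the genes that fell were searched on both strands for ACGTG, the core of the sequence that HIF binds, and for its variant GCGTG, from 250 bases before to 50 after the RefSeq start (GRCm38.p6). ACGTG was found in 10 of the 13 called members with a promoter entry and in 8 of 13 members that were not called, beside 19.7% of all 27025 promoters. GCGTG was found in 9 and 6 of them, beside 32.5% of all. A match is a description of letters, not a bound site. A palindromic CACGTG counts once on each strand. The promoters of Bnip3, of Aldoc and of the glucose transporter gene Slc2a1 are shown as examples that hold both motifs. These 3 members fell on all 4 arrays, but so did most others, 13 of the 14 called members in all. Among the others, Mxi1 and Vegfa had neither motif, and Pfkl had GCGTG only. Both motifs and their reverse complements are in capitals (Bnip3 promoter chr7:138909457-138909756, minus strand; Aldoc promoter chr11:78322823-78323122, plus strand; Slc2a1 promoter chr4:119108495-119108794, plus strand).
Bnip3: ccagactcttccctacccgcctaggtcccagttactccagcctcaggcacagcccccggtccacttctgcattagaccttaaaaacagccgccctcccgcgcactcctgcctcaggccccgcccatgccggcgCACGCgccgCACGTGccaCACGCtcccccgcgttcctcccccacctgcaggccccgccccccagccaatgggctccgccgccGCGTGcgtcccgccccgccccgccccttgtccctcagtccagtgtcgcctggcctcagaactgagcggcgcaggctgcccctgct
Aldoc: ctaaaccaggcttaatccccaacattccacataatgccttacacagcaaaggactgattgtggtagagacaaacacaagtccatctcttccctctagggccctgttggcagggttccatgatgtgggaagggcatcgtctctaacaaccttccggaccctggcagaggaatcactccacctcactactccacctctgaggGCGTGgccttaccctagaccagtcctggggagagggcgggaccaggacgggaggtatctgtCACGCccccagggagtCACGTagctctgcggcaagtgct
Slc2a1: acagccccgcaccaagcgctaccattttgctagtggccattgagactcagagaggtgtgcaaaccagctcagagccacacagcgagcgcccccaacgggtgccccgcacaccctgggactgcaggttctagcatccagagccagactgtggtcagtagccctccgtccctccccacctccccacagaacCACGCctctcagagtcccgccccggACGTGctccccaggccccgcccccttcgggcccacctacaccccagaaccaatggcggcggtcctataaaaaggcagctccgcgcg

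Selenbp2, Selenbp1 and several genes outside that list were among the deepest falls. Selenbp2, a selenium-binding protein gene, had ratios of -3.36, -3.38, -3.74 and -3.06 and fell 10.4-fold (log2 change -3.38, SE 0.11, adjusted p = 1.12e-05), the deepest of all called genes. Its close copy Selenbp1 had ratios of -2.33, -2.34, -1.04 and -1.18 and fell 3.3-fold (log2 change -1.72, SE 0.0747, adjusted p = 4.39e-05). Selenbp1 was lower on the arrays with MSCV RNA in Cy5. Whether the probes of the 2 copies tell them apart was not tested. Ccng2, an unconventional cyclin gene linked to growth arrest, had ratios of -2.45, -2.39, -2.11 and -1.97 and fell 4.69-fold (log2 change -2.23, SE 0.0754, adjusted p = 1.12e-05). Mgarp, a hypoxia-induced gene of mitochondrial movement, read -2.40, -2.98, -1.46 and -1.55 (log2 change -2.10, SE 0.10, adjusted p = 8.84e-05), and the glycoprotein hormone gene Stc1 read -1.67, -1.61, -2.56 and -2.50 (log2 change -2.09, SE 0.0732, adjusted p = 1.20e-05). Both lay well below 0 on every array, and dye orientation moved them in opposite directions. Smaller falls of at least 2-fold were measured for the sialyltransferase gene St6gal1 (-1.44), the transcriptional repressor gene Bhlhe40 (-1.40), the mitochondrial acetyl-CoA synthetase gene Acss1 (-1.39) and the glycogen branching enzyme gene Gbe1 (-1.33), each with an adjusted p of 0.000445 or less.

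**Figure D2:**
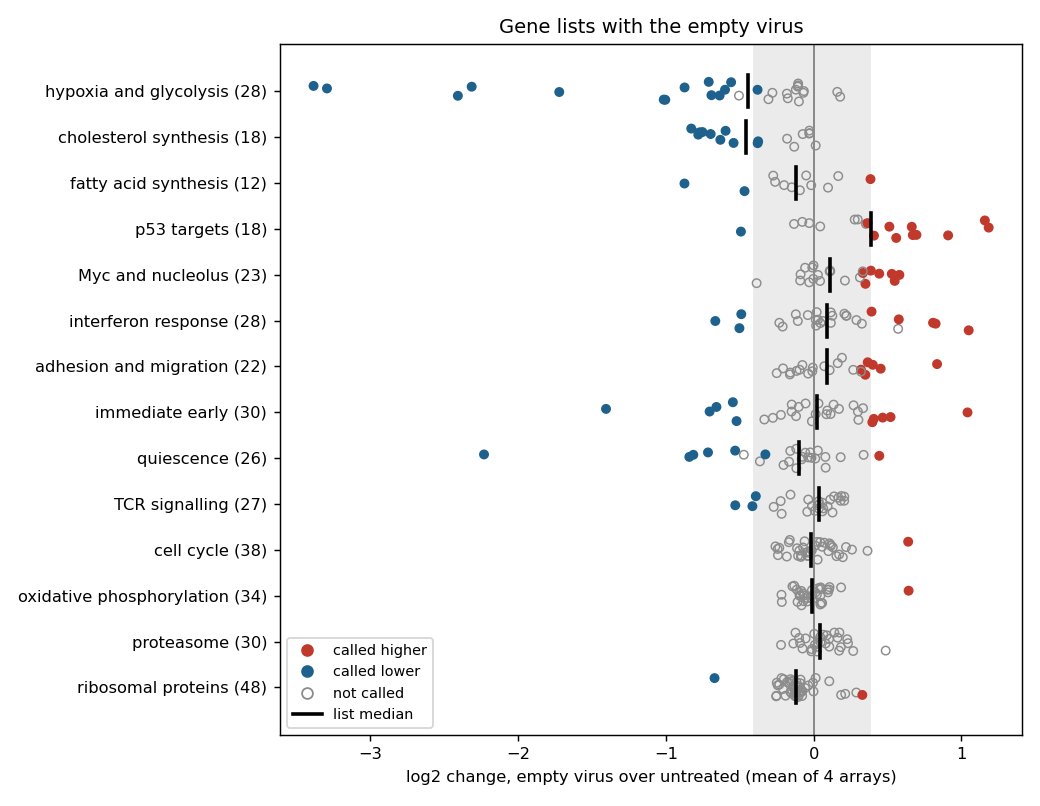
Log2 change of empty-virus over untreated cells (x axis, mean of 4 arrays) for the members of 14 gene lists, with the number measured in brackets. Filled points are called members (red higher, blue lower), open points are not called, bars are list medians and the grey band holds all probes but the outermost 2.5% at each end (-0.40 to 0.38). Hypoxia and cholesterol genes lie to the left, p53 targets to the right, and proteasome and cell cycle genes around 0.

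Cholesterol synthesis was lower at many of its steps. Enzymes of this pathway are controlled together by SREBP2, a membrane-bound transcription factor released when sterols run low. Of 18 measured genes 11 fell, 0 rose and 7 were not called, with a median of -0.46, beside 3.01% of all probes that fell. Fdft1, which makes squalene, had ratios of -0.61, -0.53, -1.31 and -0.87 and fell by 0.83 on the log2 scale (SE 0.092, adjusted p = 0.00348). Lss, the lanosterol synthase gene, had ratios of -0.65, -0.69, -1.02 and -0.76 and fell by 0.78 (adjusted p = 0.00259). Both were below 0 on all 4 arrays. The sterol demethylation enzyme gene Msmo1 (-0.82, -1.37, -0.34 and -0.57) fell by 0.78 and spread the most of these. The sterol reductase gene Tm7sf2 (-0.77) and the sterol transport gene Stard4 (-0.75) fell as well. The 7 members that were not called lay between -0.18 and 0.01, Srebf2 itself among them. With 1 array left out the list had 8 or 9 members called lower, and without the dye term 0 members were called.

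CCAAT, the sequence that the factor NF-Y binds beside SREBP sites, was found on either strand in 6 of the 7 called members with a promoter entry and in 7 of the 7 that were not called, beside 37.9% of all promoters. The sterol response element TCACNCCAC was in 0 of either group and in 1.22% of all promoters, which says only that these letters are not in this window. The called member Nsdhl had 4 copies over both strands and Msmo1 had 3. The promoter of Msmo1 is shown as an example, with CCAAT in capitals (Msmo1 promoter chr8:64733529-64733828, minus strand).
Msmo1: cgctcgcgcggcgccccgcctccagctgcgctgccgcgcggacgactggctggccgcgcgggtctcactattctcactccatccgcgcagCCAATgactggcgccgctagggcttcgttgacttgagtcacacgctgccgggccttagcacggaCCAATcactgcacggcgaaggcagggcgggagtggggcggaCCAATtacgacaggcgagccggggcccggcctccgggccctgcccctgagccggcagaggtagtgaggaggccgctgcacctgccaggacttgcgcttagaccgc
The fatty acid list, which the related factor SREBP1 serves, was mixed. Of its 12 members the desaturase gene Scd1 (-1.32, -0.90, -0.64 and -0.64; log2 change -0.87, SE 0.0899, adjusted p = 0.00261) and the citrate lyase gene Acly (log2 change -0.47, SE 0.0858, adjusted p = 0.0238) fell. The elongase gene Elovl6 rose (log2 change 0.39, SE 0.0781, adjusted p = 0.0321), and 9 were not called. Scd1 was below 0 on all 4 arrays, while Acly was not called without array 2 (-0.40), 3 (-0.53) or 4 (-0.40), nor Elovl6 with any array left out (0.33 to 0.44).

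Many targets of p53 were higher. The p53 protein is a transcription factor that is stabilised after DNA damage and induces genes of arrest, repair and apoptosis. Of 18 measured targets 10 rose, 1 fell and 7 were not called, beside 2.71% of all probes that rose, and the median was 0.39. Phlda3, a repressor of Akt, had ratios of 1.39, 1.25, 1.11 and 0.99 and rose 2.27-fold (log2 change 1.18, SE 0.0763, adjusted p = 0.000331). Aen, an apoptosis-linked nuclease gene, had ratios of 0.88, 0.70, 1.59 and 1.46 and rose 2.23-fold (log2 change 1.16, SE 0.0778, adjusted p = 0.000382). All arrays were above 0 for both, and those of Cy3-labelled MSCV RNA were higher for Aen. The pro-apoptotic gene Bbc3 had ratios of 0.58, 0.79, 1.36 and 0.91 (log2 change 0.91, SE 0.0958, adjusted p = 0.00291) and Trp53inp1, which takes part in p53-dependent death, ratios of 0.39, 0.095, 1.18 and 1.12 (log2 change 0.70, SE 0.0818, adjusted p = 0.00417). Mdm2, which encodes the ligase that degrades p53, rose by 0.67 (adjusted p = 0.0156) and the cell cycle inhibitor gene Cdkn1a by 0.51 (adjusted p = 0.0108). The repair gene Ddb2 fell (-0.49, adjusted p = 0.0386). All 10 genes that rose were above 0 on each array. Without array 1, 2, 3 or 4 the list had 7, 7, 5 and 8 members called higher. Mdm2 was not called without array 2 (0.59) or 3 (0.53), Cdkn1a not without array 1 (0.48) or 3 (0.48), and Ddb2 not without array 1 (-0.34), 3 (-0.49) or 4 (-0.49).

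The highest genes overall mixed p53 targets with surface and transport genes. Gm20767, a predicted gene with no described role, had ratios of 1.83, 2.16, 1.98 and 1.71 and rose 3.79-fold (log2 change 1.92, SE 0.0906, adjusted p = 7.29e-05). Tnfsf4, the OX40 ligand gene of T cell costimulation, had ratios of 1.55, 1.25, 1.75 and 1.53 and rose 2.87-fold (log2 change 1.52, SE 0.0867, adjusted p = 0.000209). Neither dye orientation stood apart for these 2 genes. The thiamine transporter gene Slc19a2 (1.77, 1.73, 0.57 and 0.70; log2 change 1.19, SE 0.0745, adjusted p = 0.000292) was high mainly where the MSCV RNA was in Cy5, and Ly6c1, a lymphocyte surface antigen gene (0.72, 0.52, 1.91 and 1.35; log2 change 1.13, SE 0.10, adjusted p = 0.00188), mainly where it was in Cy3. The DNA damage-linked survival gene Ddias (1.14), the zinc exporter gene Slc30a1 (1.09), the kinase gene Dyrk3 (1.08) and Phlda1, a gene induced by T cell receptor signals (1.04), each rose over 2-fold. So did the actin-binding cortactin gene Cttn on its first probe (1.16), while its second read -0.12. Aire (1.27, adjusted p = 0.0449) had ratios of -0.31, -2.43, 3.63 and 4.19 and a dye effect of -2.64, and it was not called without array 3 (1.41) or 4 (1.13).

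Interferon and viral sensing genes gave a divided picture. Retroviral nucleic acid can be detected by innate sensors, which induce interferon and its target genes. Of 28 measured interferon-response genes 5 rose, 3 fell and 20 were not called, with a median of 0.09, beside 2.71% of all probes that rose and 3.01% that fell. Ifit1, a cap-recognition restriction factor, had ratios of 1.78, 0.84, 0.75 and 0.83 (log2 change 1.05, SE 0.14, adjusted p = 0.00688), with array 1 far above the other 3. The oligoadenylate synthetase-like gene Oasl1 had ratios of 1.17, 1.19, 0.42 and 0.53 (log2 change 0.83, SE 0.0741, adjusted p = 0.00161) and the ubiquitin-like gene Isg15 ratios of 0.37, 0.81, 1.39 and 0.66 (log2 change 0.81, SE 0.13, adjusted p = 0.0149). Oasl1 was higher in the Cy5 orientation, and Isg15 was not called without array 2 (0.70) or 3 (0.63). In contrast the interferon-induced factor gene Irf1 fell (-0.41, -0.46, -1.04 and -0.75; log2 change -0.67, SE 0.0812, adjusted p = 0.00509), as did the immunoproteasome gene Psmb9 (-0.49), which was not called without array 1 (-0.47) or 4 (-0.43). The number that rose was 4, 2, 3 and 3 without array 1, 2, 3 and 4. Of 17 retrovirus restriction and sensing genes, the Toll-like receptor adaptor gene Myd88 rose (0.57, with arrays from -0.23 to 1.58) and the RNA helicase gene Mov10 fell (-0.37), and 15 were not called. Myd88 was not called without array 1 (0.41), 3 (0.61) or 4 (0.52), nor Mov10 with any array left out (-0.42 to -0.32).

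Stress and quiescence genes fell in places. Of 26 antiproliferative and quiescence genes 6 fell, Ccng2 the most, and 1 rose, beside 3.01% of all probes that fell and 2.71% that rose. The glucocorticoid-induced gene Tsc22d3 (-1.07, -0.86, -0.62 and -0.82; log2 change -0.84, SE 0.0815, adjusted p = 0.00214) and the PI3K inhibitor gene Pik3ip1 (-0.78, -0.70, -1.04 and -0.73; log2 change -0.81, SE 0.0833, adjusted p = 0.00259) were below 0 on all 4 arrays. Klf2, a factor of T cell quiescence and trafficking (-0.35, 0.066, -1.34 and -1.24; log2 change -0.71, SE 0.0904, adjusted p = 0.00586), was low mainly where the MSCV RNA was in Cy3. Beside the same shares, 3 of 24 genes of the integrated stress response fell and 1 rose. The pseudokinase gene Trib3 read -0.87, -0.58, -1.55 and -1.34 (log2 change -1.08, SE 0.0855, adjusted p = 0.00083) and its inducer Ddit3 read -1.04, -0.90, -0.63 and -0.69 (log2 change -0.81, SE 0.0749, adjusted p = 0.0018), and both were below 0 on every array. The stress protein gene Nupr1 fell too (-0.48) and the antioxidant gene Sesn2 rose (0.60). Nupr1 was not called without array 1 (-0.42), 3 (-0.51) or 4 (-0.44), nor Sesn2 without array 1 (0.62), 2 (0.58) or 4 (0.47). Of 13 glucocorticoid-response genes, again beside 3.01% and 2.71% of all probes, 2 fell, Tsc22d3 and the phosphatase gene Dusp1 (-0.52), and 2 rose, the kinase gene Sgk1 (1.07, 1.11, 0.36 and 0.37; log2 change 0.73, SE 0.0727, adjusted p = 0.00245) and the annexin gene Anxa1 (0.67). Dusp1 was not called without array 1 (-0.46) or 3 (-0.47), nor Anxa1 without array 2 (0.63) or 3 (0.52).

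Immediate early genes split evenly, 5 of 30 higher and 5 lower, beside 2.71% of all probes that were higher and 3.01% that were lower. Bhlhe40 (-1.29, -1.19, -1.64 and -1.50; log2 change -1.40, SE 0.0757, adjusted p = 0.000163) and the early response gene Ier3 (-1.10, -0.76, -0.41 and -0.54; log2 change -0.70, SE 0.0859, adjusted p = 0.00509) fell on all 4 arrays, as Phlda1 rose on all 4 (1.15, 1.49, 0.81 and 0.72; log2 change 1.04, SE 0.0854, adjusted p = 0.00105). The stress gene Gadd45b fell (-0.66) but was not called without array 2 (-0.60) or 3 (-0.53). Of 23 Myc-linked and nucleolar genes 7 rose and 0 fell, with a median of 0.11, beside 2.71% of all probes that rose. They were small changes, such as 0.58 for the helicase gene Ddx21, 0.55 for Wdr43, 0.53 for Rrs1 and 0.44 for Rrp9, all of ribosome assembly. Ddx21 (0.187, -0.177, 1.362 and 0.95), Wdr43 (0.216, 0.12, 1.141 and 0.718) and Rrs1 were high mainly where the MSCV RNA was in Cy3. Rrp9 was higher where it was in Cy5 (0.642, 0.617, 0.314 and 0.204). Without array 1, 2, 3 or 4 the list had 1, 2, 0 and 3 members called higher, and without array 3 it had 1 called lower. With all 11 groups in one fit 1 was called higher. Rrp9 was not called with any array left out (0.42 to 0.47). Ddx21 was not called without array 1 (0.49) or 3 (0.48), Wdr43 not without array 1 (0.52) or 3 (0.44), and Rrs1 not without array 2 (0.44) or 3 (0.40). Of 22 adhesion and migration genes 6 rose and 0 fell, beside the same 2.71% of all probes that rose. Itgb7, a gut-homing integrin gene (0.79, 0.76, 1.13 and 0.66; log2 change 0.84, SE 0.0944, adjusted p = 0.00369), was above 0 on every array and led them. With 1 array left out, 1 or 2 members of the list were called higher. The hyaluronan receptor gene Cd44 (0.45) was not called without array 1 (0.38), 3 (0.53) or 4 (0.38), the integrin gene Itgae (0.40) not with any array left out (0.37 to 0.43), and the adhesion gene Icam2 (0.37) not with any array left out (0.33 to 0.40).

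Few members were called in the lists of housekeeping genes, beside 2.71% of all probes that rose and 3.01% that fell. Of 38 cell cycle genes only Ccne1, the cyclin E1 gene, was called, and its ratios of 1.63, 1.10, -0.08 and -0.089 followed dye orientation. It rose by 0.64 (adjusted p = 0.0126) but was not called without array 3 (0.64) or 4 (0.64). Of 34 respiratory chain genes only the cytochrome c gene Cycs was called (0.64; -0.018, -0.031, 1.81 and 0.81), and not without array 1 (0.64), 2 (0.65) or 3 (0.39). The 48 ribosomal protein genes leaned below 0, with a median of -0.12 and 6 of 48 above 0, beside 0.0098 and 8691 of 16463 for all probes, but 2 of them were called. Rpl22 fell (-0.67) but was not called without array 1 (-0.63) or 3 (-0.52), and Rps20 rose (0.33) but was not called with any array left out (0.30 to 0.36). Of 30 proteasome genes 0 were called, and of 20 chaperone genes 1, the co-chaperone gene Dnaja1 (0.38), which was not called with any array left out (0.36 to 0.41). Of 8 histone genes only H2ax was called (-0.42), and not without array 2 (-0.35), 3 (-0.41) or 4 (-0.42). In the apoptosis list 5 of 26 genes were called (19.2%), beside 5.72% of all probes. The survival gene Bcl2 (0.66, 0.32, 1.03 and 0.75; log2 change 0.69, SE 0.0923, adjusted p = 0.00709) and Bbc3 rose, and the caspase gene Casp6 (-0.66, adjusted p = 0.00509), the death agonist gene Bid (-0.35) and the caspase gene Casp9 (-0.34) fell. Bid was not called with any array left out (-0.39 to -0.31), nor Casp9 with any array left out (-0.38 to -0.30).

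Cell type markers and the genes the series manipulates are given as ratios, since the files give no levels. Both channels hold DO11.10 RNA, so these ratios compare transduced with untreated cells and cannot check what the cells are. Of 27 T cell receptor complex and signalling genes 3 fell and 0 rose, beside 3.01% of all probes that fell and 2.71% that rose. They were the phosphatase gene Ptpn6 (-0.53), the receptor chain gene Cd3g (-0.41) and the kinase gene Txk (-0.39). Ptpn6 was not called without array 1 (-0.50) or 4 (-0.47), Cd3g not with any array left out (-0.47 to -0.36), and Txk not with any array left out (-0.45 to -0.33). The list of 34 activation and cytokine genes had 2 higher and 2 lower members, beside the same shares of all probes. Tnfsf4 and Cd44 rose, and lymphotoxin beta, Ltb (-0.58, -0.44, -0.61 and -0.56; log2 change -0.55, SE 0.0749, adjusted p = 0.00765), and the inhibitory receptor gene Pdcd1 (-0.39) fell, the last not called with any array left out (-0.43 to -0.36). Of 20 antigen presentation genes 3 fell (all probes 3.01%), H2-T23 (-0.59, -0.39, -1.09 and -0.87; log2 change -0.73, SE 0.0816, adjusted p = 0.00348), Psmb9 and H2-Oa (-0.45), the last not called without array 1 (-0.47), 2 (-0.42) or 4 (-0.36). Among markers of other cells, 0 of 12 myeloid and 0 of 12 B cell genes were called, with ranges of -0.16 to 0.14 and -0.35 to 0.24. Of 17 fibroblast and packaging cell genes only the receptor gene Pdgfrb was (-0.37), and not with any array left out (-0.39 to -0.35). Summed levels of these markers cannot be had from ratios, so the part of other cells in the changes above was not tested.

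Of the genes behind the series' constructs, Hdac7 was lower in empty-virus cells. It encodes a class IIa histone deacetylase that MEF2 proteins tether to DNA. It had ratios of -1.16, -0.92, -0.34 and -0.92 and fell 1.78-fold (log2 change -0.83, SE 0.11, adjusted p = 0.00653), and array 3 was the nearest to 0. Its relative Hdac5 had ratios of -0.64, -0.58, -0.75 and -0.65, all 4 alike, and fell 1.58-fold (log2 change -0.66, SE 0.074, adjusted p = 0.00362). Hdac7 and Hdac5 kept their calls with any array left out, but each lost its call under another setting of the fit. The other 14 measured genes of deacetylases, MEF2 proteins and their partners were not called. Mef2d itself read 0.098, -0.25, -0.074 and 0.32 (mean 0.02, adjusted p = 0.925) and Nr4a1 read -0.004, -0.12, 0.68 and -0.011 (mean 0.14, adjusted p = 0.557), so neither passed the test. Array 3 stood apart from the other 3 for Nr4a1.

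**Figure D3:**
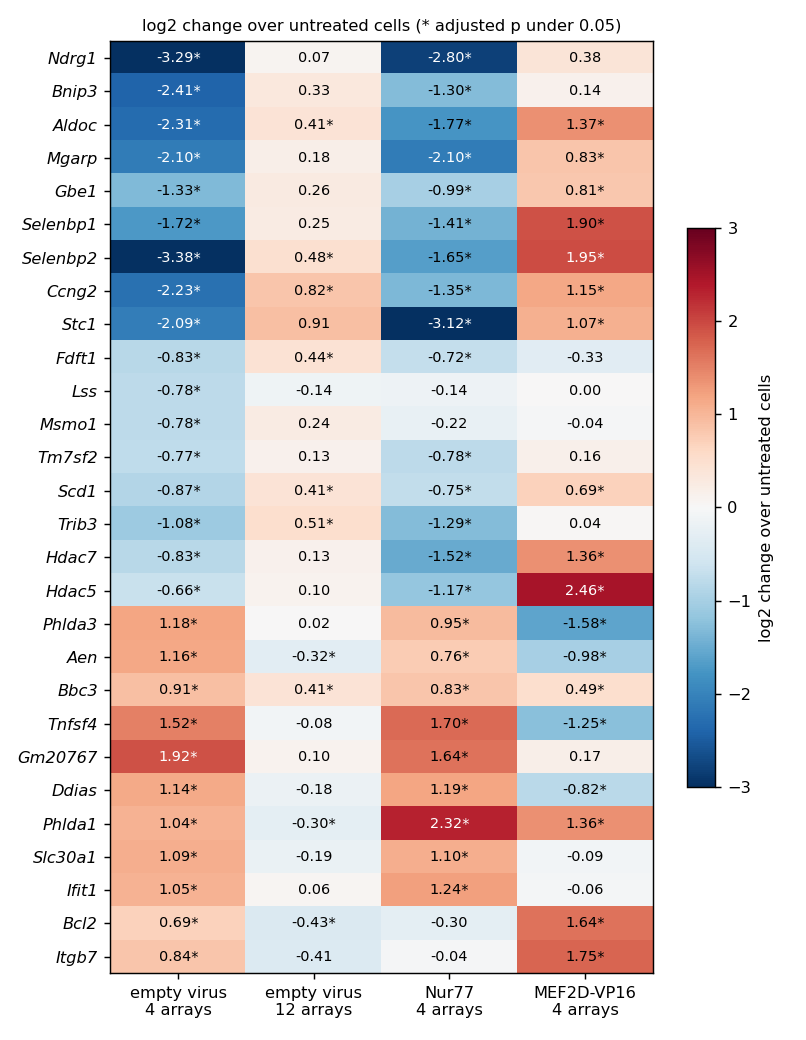
Log2 change over untreated cells of 28 named genes (rows) in the 4 hybridoma sets (columns), with red higher and blue lower than untreated cells and an asterisk at adjusted p under 0.05. From Ndrg1 to Hdac5, values of the 4-array empty-virus set and of the Nur77 set are all below 0, while those of the 12-array empty-virus set run from -0.14 (Lss) to 0.91 (Stc1) and those of MEF2D-VP16 from -0.33 (Fdft1) to 2.46 (Hdac5). All 4 columns are ratios over untreated cells, and whether the untreated RNA was the same preparation is not known.

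The second empty-virus set asks the same question of 12 further arrays, and gave other values. In MSCV_B minus MSCV_A, 518 probes were called (3.15%), 256 higher in MSCV_B (1.56%) and 262 lower (1.59%). With MSCV_A slides of one number averaged, 1120 were called. MSCV_A against untreated cells had 325 called probes (1.97%), of which 0 changed 2-fold. Ndrg1 was -3.29 in MSCV_B and 0.0714 in MSCV_A (arrays from -0.53 to 0.81), a difference of -3.36 (SE 0.21, adjusted p = 1.79e-07). Bnip3 was -2.41 in MSCV_B and 0.33 in MSCV_A, with a difference of -2.73 (SE 0.15, adjusted p = 4.11e-08). The arrays of the 2 sets did not overlap for either gene. Ccng2 was -2.23 in MSCV_B but rose in MSCV_A (0.82, adjusted p = 7.21e-05), and so did Selenbp2 (-3.38 in MSCV_B against 0.48 in MSCV_A, adjusted p = 0.0129). Among the higher genes, Tnfsf4 was 1.52 in MSCV_B and -0.0846 in MSCV_A, with a difference of 1.61 (SE 0.0939, adjusted p = 8.19e-08), and Aen was 1.16 in MSCV_B and -0.32 in MSCV_A.

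By list, 10 of 28 hypoxia and glycolysis genes and 8 of 18 cholesterol genes were lower in MSCV_B than in MSCV_A, and 7 of 18 p53 targets were higher, beside 1.59% of all probes that were lower and 1.56% that were higher. The medians of these lists were -0.44, -0.46 and 0.39 in MSCV_B and 0.077, 0.034 and 0.024 in MSCV_A. The hypoxia genes counted as lower include Selenbp1, Selenbp2, Ndrg1 and Bnip3, which were listed with their earlier results known. Fdft1 fell in MSCV_B and rose in MSCV_A (0.44, adjusted p = 0.0227). Of the p53 targets, Bbc3 was 0.91 in MSCV_B and 0.41 in MSCV_A (adjusted p = 0.00069 in MSCV_A), and Cdkn1a was 0.51 in MSCV_B and 0.43 in MSCV_A (adjusted p = 0.00231 in MSCV_A). Both sets were measured against untreated cells. In the interferon list 4 of 28 genes were higher and 1 lower in MSCV_B than in MSCV_A, and in the cell cycle list 1 of 38 was higher and 0 lower. The MSCV_A arrays carry their own uncertainty, since same-dye pairs correlated under -0.3 in 9 of 30 cases, all with replicate 3 or 9, whose direction is therefore unsettled. With the sign of those 2 arrays turned 407 probes were called in the difference, and with them left out 722. Without array 1, 2, 3 or 4 of MSCV_B it was 308, 250, 301 and 299. The 2 sets lie on different slides, and their untreated RNA may differ too. A difference between slides or between untreated RNA thus cannot be told apart from one between the sets. Slides of MSCV_B and of Nur77 follow each other in number. Neither they nor the slides of MEF2D-VP16 carry a series number, unlike those of MSCV_A.

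The set was also compared with 2 constructs delivered by the same virus. Nur77 is an orphan nuclear receptor encoded by Nr4a1, and in Nur77 cells minus MSCV_B 1100 probes were called (6.68%). Nr4a1 was 4.50 over untreated cells in Nur77 cells and 0.14 in MSCV_B, a difference of 4.36 (SE 0.50, adjusted p = 0.000861). For Ndrg1 the values over untreated cells were -2.80 in Nur77 cells and -3.29 in MSCV_B, and the difference was not called: 0.49 (SE 0.18, adjusted p = 0.166). For Mgarp they were -2.10 in Nur77 cells and -2.10 in MSCV_B, and the difference was -0.003 (SE 0.14, adjusted p = 0.993). A miss of the threshold does not show that the cells were alike. Other low genes were higher in Nur77 cells than in MSCV_B, such as Bnip3 (-1.30 in Nur77 cells, -2.41 in MSCV_B; difference 1.11 (SE 0.11, adjusted p = 0.0003)), and Stc1 was lower still (-3.12 in Nur77 cells, -2.09 in MSCV_B; difference -1.03 (SE 0.16, adjusted p = 0.00479)). The count of calls was 559 to 695 with 1 MSCV_B array left out, 559 without array 2 or 3. Of 30 probes at least 2-fold lower in MSCV_B, 26 were called lower and 1 higher in Nur77 cells over untreated cells. In MSCV_A 1 was lower and 9 higher. Of the 14 probes at least 2-fold higher, 11 were higher and 1 lower in Nur77 cells, and 0 and 2 in MSCV_A. By list, 12 of 28 hypoxia and glycolysis genes were lower in Nur77 cells over untreated cells and 0 were higher. Of 18 cholesterol genes 8 were lower and 0 higher there, and of 18 p53 targets 6 were higher and 1 lower. Of all 16463 probes, 1127 were lower and 1040 higher in Nur77 cells, and 222 and 103 in MSCV_A. Whether this follows slides, untreated RNA or virus was not tested.

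MEF2D-VP16 joins the MEF2D transcription factor to the activation domain, and in MEF2D-VP16 cells minus MSCV_B 3164 probes were called (19.2%). Low genes of MSCV_B differed widely there. Selenbp2 was 1.95 over untreated cells in MEF2D-VP16 cells and -3.38 in MSCV_B, a difference of 5.33 (SE 0.15, adjusted p = 4.29e-08). Aldoc was 1.37 in MEF2D-VP16 cells and -2.31 in MSCV_B, a difference of 3.69 (SE 0.12, adjusted p = 9.42e-08). Ndrg1 was 0.38 (adjusted p = 0.14) in MEF2D-VP16 cells and -3.29 in MSCV_B, a difference of 3.68. Among the high genes Tnfsf4 was -1.25 in MEF2D-VP16 cells and 1.52 in MSCV_B, a difference of -2.77 (SE 0.22, adjusted p = 2.14e-05). Hdac5 was 2.46 in MEF2D-VP16 cells and -0.66 in MSCV_B.

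**Figure D4:**
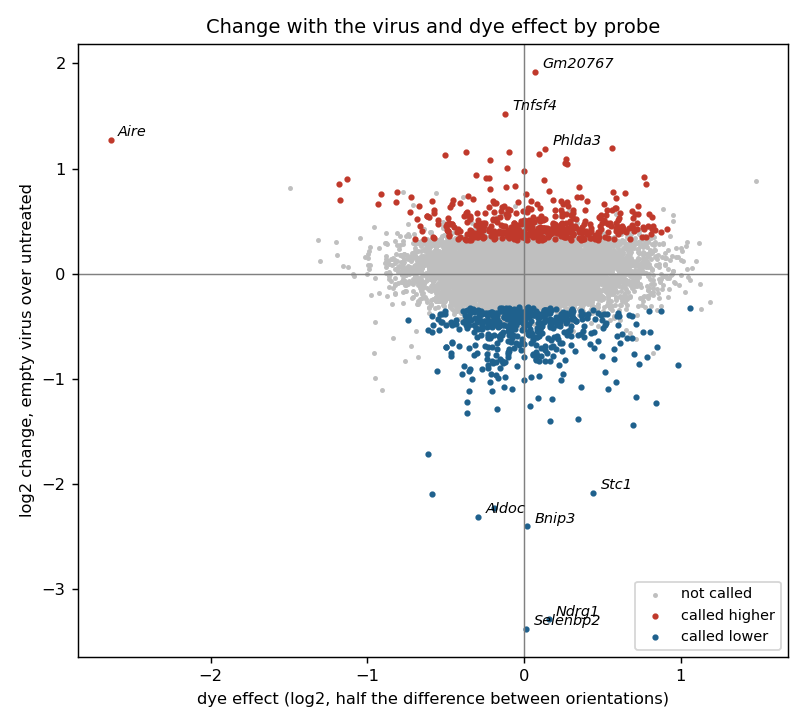
Log2 change of empty-virus over untreated cells (y axis) against the dye effect (x axis, log2, the Cy5-orientation mean minus the mean of 4 arrays), with 1 point per probe and called probes in red (higher) or blue (lower). Selenbp2, Ndrg1, Bnip3, Gm20767 and Tnfsf4 lie near 0 on the dye axis, and Aire lies at -2.64.

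Read as Cy5 over Cy3 on every array, the change and the dye effect trade places, and 3774 probes would be called, of which 379 are among the 942 and 210 of these keep their direction. Under that reading Ndrg1 would be 0.16, Bnip3 0.0205, Selenbp2 0.0145 and Tnfsf4 -0.12, with adjusted p-values of 0.206, 0.879, 0.947 and 0.384 in that order.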

How the data were processed

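Per the labels' protocols, the authors used an acid phenol extraction and joined dyes to aminoallyl cDNA. They deposited log2 ratios (base 2 was assumed). Scanner, background correction, normalization and ratio direction: not given in the sources used here. Array titles set the dyes, because the channel labels list only Cy3. Probes were named through the platform annotation, with symbols updated by Entrez ID for 14272 probes.

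Arrays were centred on the median and fitted with limma 3.58.1 (lmFit, eBayes, R 4.3.3) with a dye column per group. Calls needed a two-sided Benjamini-Hochberg adjusted p under 0.05 over 16463 probes. The fit was tested on simulated data. Spot intensities were not used here, so depth is unknown.

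The arrays, 26 gene lists and tests were chosen with earlier results of these data known. Named genes were called single-symbol probes with the same sign on 4 arrays, 12 at either end of the ranking, up to 4 called members per list, Hdac7, Mef2d and Nr4a1, and the 6 highest and lowest of the difference between the sets. Slc2a1, Pfkl, Vegfa, P4ha1, Gapdh, Ldha, Mdm2, Cdkn1a, Ddb2 and Stard4 were added for their roles, and Casp9 to complete a count, after their values were seen. Requiring the same sign on all 4 arrays, the hypoxia list without 4 members and list counts without single arrays were alternatives chosen after seeing the data. Promoters are RefSeq's (GRCm38.p6).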

Additional observations from a re-analysis of the deposited data

Results flagged for a closer look

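Single arrays stood far from the other 3 of the set for 3 of 81 named genes, by the gap to the nearest value over the range. Ifit1 read 1.78 on array 1, Nr4a1 read 0.68 on array 3 and H2ax read -0.62 on array 2. For 4 unrelated values, chance would give about 4 such cases among 81 genes. These arrays pair by dye and many of the genes were picked for agreement across arrays. That figure may thus not apply, and no conclusion is drawn from the number.

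The empty-virus effect differed between the 2 sets for 53 of 81 named genes, by limma's test of the difference over all probes. These genes were mostly named for their change in the 4-array set, so the count is not independent of that choice. Lower in MSCV_B than in MSCV_A, as log2 differences, were Selenbp2 (-3.87), Ndrg1 (-3.36), Ccng2 (-3.05), Stc1 (-2.996), Bnip3 (-2.73), Aldoc (-2.73), Mgarp (-2.28), Bhlhe40 (-1.99), Selenbp1 (-1.97), Trib3 (-1.59), Gbe1 (-1.59), Klf2 (-1.59), Acss1 (-1.31), Scd1 (-1.29), Fdft1 (-1.27), Tsc22d3 (-1.27), Ier3 (-1.26), Gadd45b (-1.18), Ddit3 (-1.08), Dusp1 (-1.05), Msmo1 (-1.01), Hdac7 (-0.96), Tm7sf2 (-0.90), H2-T23 (-0.80), Hdac5 (-0.75), Pik3ip1 (-0.73), Rpl22 (-0.70), Lss (-0.65), Psmb9 (-0.60), H2ax (-0.57) and Ptpn6 (-0.55). Higher in MSCV_B were Gm20767 (1.82), Tnfsf4 (1.61), Aire (1.49), Aen (1.48), Phlda1 (1.34), Ddias (1.32), Ly6c1 (1.29), Ddx21 (1.29), Slc30a1 (1.28), Itgb7 (1.25), Phlda3 (1.16), Cttn (1.14), Bcl2 (1.12), Dyrk3 (1.05), Sgk1 (1.05), Ifit1 (0.99), Anxa1 (0.88), Nr4a1 (0.82), Ccne1 (0.69), Rrs1 (0.67), Rrp9 (0.66) and Bbc3 (0.50). Under every alternative run for the difference 35 of the 53 kept their call. The 18 that lost it under at least 1 were Acss1, Pik3ip1, H2-T23, Klf2, Rpl22, Ptpn6, Dusp1, Psmb9, H2ax, Nr4a1, Rrs1, Ddx21, Ccne1, Anxa1, Bcl2, Itgb7, Bbc3 and Aire.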

How the results depend on the processing

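Against untreated cells the 942 calls became 910 without centring, 915 with arrays scaled to one spread, 846 with 3 groups of 4 arrays in one fit, 941 with a robust fit and 698 when the same sign on all 4 arrays was asked for as well. They became 491 with all 11 groups in one fit, 244 at an adjusted p under 0.01, 20 without the dye term and 3774 with ratios taken as Cy5 over Cy3. With 1 array left out they lay between 347 and 448. The difference between the 2 sets, 518 calls, became 416 with one shared dye term, 519 without centring, 1120 with MSCV_A slides of one number averaged, 357 with MSCV_A slide series 14 alone, 765 with series 15 alone, and 250 to 308 with 1 MSCV_B array left out. Nur77 minus MSCV_B gave 559 to 695 and MEF2D-VP16 minus MSCV_B 2419 to 2560 with 1 MSCV_B array left out, against 1100 and 3164. The cause was not tested, other than fewer arrays where arrays were left out. Of 79 called named genes, 32 lost their call when at least 1 of the arrays was left out, and 42 kept it under every setting other than the Cy5 over Cy3 reading, the fit without a dye term and the stricter threshold. Hdac7, Hdac5, Klf2, Ier3 and Ltb kept their call with any array left out but lost it under at least 1 setting other than those 3. Without the dye term 0 cholesterol genes, 4 hypoxia genes and 1 p53 target were called in the main direction of their list. Read as Cy5 over Cy3, these lower or unmoved genes turned positive: St6gal1 0.70, Klf2 0.57, Stc1 0.44, Trib3 0.36, Acss1 0.34, Casp9 0.30, Fdft1 0.26, H2-T23 0.24, Pfkl 0.24, Irf1 0.23, Dusp1 0.18, Bhlhe40 0.17, Gapdh 0.16, Ndrg1 0.16, Lss 0.11, P4ha1 0.11, Tm7sf2 0.0805, Pdgfrb 0.0755, Pik3ip1 0.0737, Txk 0.0705, Ldha 0.0605, Pdcd1 0.0595, Hdac5 0.044, Ltb 0.0357, Bnip3 0.0205, Selenbp2 0.0145, Rpl22 0.00275. These turned negative: Aire -2.64, Cycs -0.67, Ddx21 -0.58, Ly6c1 -0.50, Trp53inp1 -0.45, Anxa1 -0.41, Wdr43 -0.38, Aen -0.37, Rrs1 -0.34, Bbc3 -0.22, Dyrk3 -0.22, Isg15 -0.22, Bcl2 -0.20, Nr4a1 -0.20, Rps20 -0.19, Mdm2 -0.19, Itgae -0.16, Tnfsf4 -0.12, Mef2d -0.10, Cttn -0.0965, Itgb7 -0.0605. Mef2d turned to -0.064 without array 1 and -0.075 without array 4, and Nr4a1 to -0.036 without array 3, and with 1 array left out these 2 genes ran from -0.075 to 0.12 and from -0.036 to 0.31, never called. No paired analysis was possible because the ratio on each array already pairs the transduced with the untreated RNA, and the labels number slides without tying a slide of this set to one of another. Signal over background was not measured, since the files hold ratios, and 4 arrays with 2 residual degrees of freedom limit the precision.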
